A study of Homo sapiens with 20 samples.

Results

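The genes described here are 47 genes of the V-ATPase, the lysosome and autophagy, chosen by symbol, out of 62266 named genes in the files. They comprise 16 V-ATPase genes, 12 lysosomal genes (TFEB included) and 19 autophagy genes, and all 47 symbols were found. Total RNA was sequenced from 2 compartments of HEK293, a line of human embryonic kidney origin: cytoplasmic RNA granules (bodies in which RNA and protein gather with no membrane around them, isolated as granule cores) and exosomes (small vesicles that cells release). The cells were either HD-induced, where HD is Huntington's disease, or controls, and the sources used here do not say by what means HD was induced. The 4 groups were granules of HD-induced cells, granules of control cells, exosomes of HD-induced cells and exosomes of control cells, each with 5 libraries from biological replicates. Genotype and allele beyond the line and the induction are not given, so the groups stand for one cell line in 2 states.

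The V-ATPase is a rotary proton pump that acidifies lysosomes and other organelles. Its cytosolic V1 sector burns ATP, and its membrane-bound V0 sector carries the protons. Lysosomes need this acid for their hydrolases, and they receive cargo from autophagosomes, the double-membraned vesicles of autophagy, whose membranes are marked by lipid-linked proteins of the ATG8 family. TFEB, a transcription factor, binds the CLEAR motif in the promoters of many lysosomal and autophagy genes. Autophagy is much studied in Huntington's disease because it can clear aggregated huntingtin.

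Libraries held 26960097 to 35823592 estimated reads in HD granules, 17393605 to 38355241 in control granules and 8990626 to 15610232 in control exosomes. HD exosomes were uneven, with 1975861 to 14445165 reads in 4 libraries and 1074 reads in replicate 4, in which 2 of the 47 genes had any read. That library stays in the tests but is left out of all levels, so HD exosomes have n = 4 there. In HD exosome 2, 86.6% of reads fell on entries without a gene name, against 24.9% to 59.2% in the other 19 libraries. In HD granule 3, mitochondrial genes took 6.76% of reads on named genes, against 0.140% to 2.64% elsewhere. Each of the 9 HEK293 marker genes had reads in control granules and in control exosomes, and LIN28B was the highest of them in all 4 groups. Markers of other cell types were also read. The summed level of 11 red blood cell markers was 8.31 to 120.1 CPM in HD granules, 15.0 to 44.6 CPM in control granules, 103 to 2441 CPM in HD exosomes and 88.5 to 311 CPM in control exosomes, with AHSP at 0 throughout. The summed level of 12 keratinocyte markers was 2.52 to 8.30 CPM in HD granules, 2.03 to 3.84 CPM in control granules, 31.9 to 1316 CPM in HD exosomes and 10.9 to 133 CPM in control exosomes, with FLG at 0 except in control exosomes. The summed level of 8 platelet markers overlapped between compartments, with 19.5 to 39.2 CPM in HD granules, 19.7 to 30.9 CPM in control granules, 20.6 to 36.0 CPM in HD exosomes and 22.9 to 45.5 CPM in control exosomes. GNG11 was the highest of these 8 in all 4 groups, PPBP and GP9 were at 0 throughout, and PF4 was at 0 except in control exosomes. Of the markers that could be tested in control cells, those lower in granules were 5 of 6 for red blood cells, 3 of 3 for keratinocytes, 2 of 4 for platelets, 1 of 3 for myeloid cells, 1 of 1 for lymphocytes and 4 of 6 for HEK293 (1 more was higher), against 32.5% of all genes. The part of these RNAs in the results below was not tested. In bulk RNA of this kind, fewer vesicles or granules and less of an mRNA in each cannot be told apart.

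Promoters were read from RefSeq for 38 of the 47 genes on GRCh38.p14, from 250 bases before to 50 bases after the gene start. ATP6V1A, ATP6V1B2, ATP6V1C1, ATP6V1H, ATP6V0E1, LAMP2, CTSB, HEXA and RB1CC1 had no entry. The core E-box CACGTG, which reads the same on both strands, was in the promoter of 9 of the 38 genes (23.7%), against 8.77% of 27305 genes with a promoter. The longer TCACGTGA, which contains it, was in 6 (15.8%, against 1.18%). These 6 were ATP6V1G1, ATP6V0D1, LAMP1, MCOLN1, CTSA and GAA. The longer motif is part of CLEAR, and 3 of the 6 promoters are printed, with it in capitals, because their genes share it and yet took different places in the data. ATP6V1G1 had the highest log2 fold change of the 6 between control granules and control exosomes, LAMP1 the one nearest 0 and ATP6V0D1 the lowest. A match is a description of letters and not a measured binding site.
ATP6V1G1 promoter, chr9:114587519-114587818, plus strand: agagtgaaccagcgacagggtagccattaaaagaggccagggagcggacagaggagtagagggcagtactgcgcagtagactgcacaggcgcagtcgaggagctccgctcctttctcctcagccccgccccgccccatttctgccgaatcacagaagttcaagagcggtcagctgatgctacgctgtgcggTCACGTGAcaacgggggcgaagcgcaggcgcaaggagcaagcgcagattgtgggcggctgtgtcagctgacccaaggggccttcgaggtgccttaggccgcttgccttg
LAMP1 promoter, chr13:113296989-113297288, plus strand: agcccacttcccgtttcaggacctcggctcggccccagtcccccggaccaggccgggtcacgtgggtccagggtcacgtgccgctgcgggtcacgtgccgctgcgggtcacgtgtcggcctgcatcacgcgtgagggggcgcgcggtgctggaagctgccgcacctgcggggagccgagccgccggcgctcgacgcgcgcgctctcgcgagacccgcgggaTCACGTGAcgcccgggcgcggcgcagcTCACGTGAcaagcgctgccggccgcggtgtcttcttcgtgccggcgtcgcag
ATP6V0D1 promoter, chr16:67481108-67481407, minus strand: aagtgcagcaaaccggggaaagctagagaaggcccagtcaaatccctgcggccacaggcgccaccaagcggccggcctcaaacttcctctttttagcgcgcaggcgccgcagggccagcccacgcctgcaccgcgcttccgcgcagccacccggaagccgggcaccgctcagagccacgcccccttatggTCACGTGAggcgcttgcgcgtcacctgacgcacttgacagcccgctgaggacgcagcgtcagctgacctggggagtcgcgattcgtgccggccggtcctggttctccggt
The motif began 59 bases before the gene start in ATP6V1G1 and 60 bases before it in ATP6V0D1, while LAMP1 held 2 copies, 29 and 2 bases before it.

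Per transcript length, the abundance of these mRNAs spanned a wide range in both compartments. In TPM (reads per length, relative to the whole library), the highest means in control granules were those of GABARAP, an ATG8 family member, at 109 ± 37.3 TPM, and ATP6V1F, the F subunit of the V1 stalk, at 100.2 ± 23.3 TPM (SD, n = 5). In control exosomes the same genes led, with 93.1 ± 9.39 TPM for GABARAP and 68.5 ± 8.68 TPM for ATP6V1F. TFEB was the scarcest member in both, at 0.210 ± 0.0871 TPM in control granules and 0.577 ± 0.158 TPM in control exosomes. V1 subunits, which are assembled into one complex, ranged in control granules from 6.64 ± 1.63 TPM for ATP6V1B2 to the value of ATP6V1F. Summed over all 47 genes, the level was 722 ± 149 TPM in control granules and 819 ± 44.7 TPM in control exosomes, and the ranges of the groups overlapped. All levels below are CPM, which serve to compare libraries and not genes. CPM are reads relative to the library's reads on named genes that passed the filter on low counts. They are scaled over the 20 libraries with the trimmed mean of M values.

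**Figure D1:**
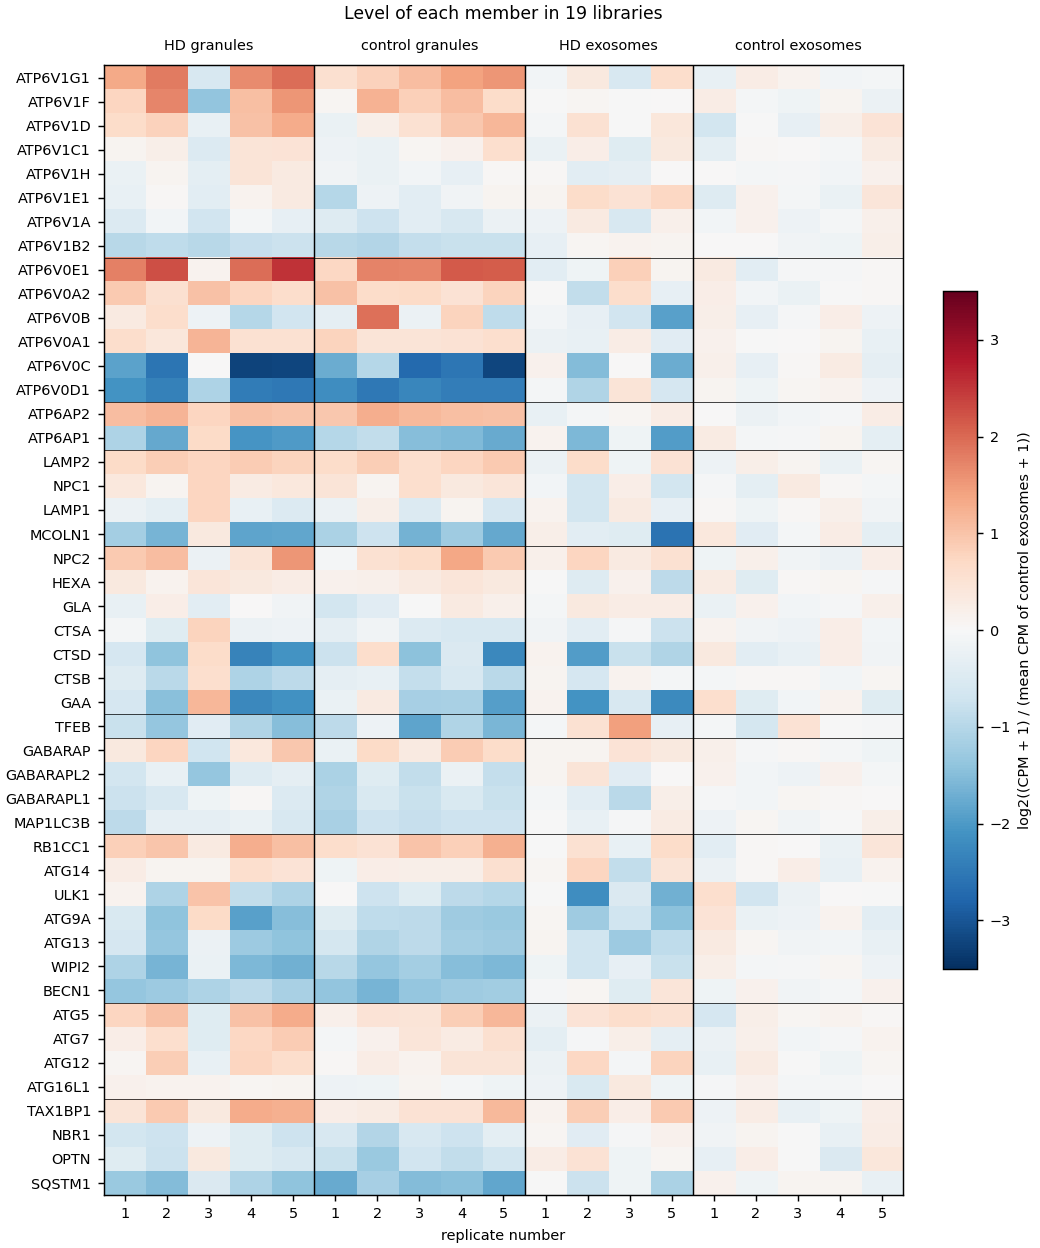
Level of each of the 47 genes (rows, in blocks by role) in 19 libraries (columns), as log2 of CPM + 1 over the mean CPM + 1 of control exosomes. ATP6V0D1 and BECN1 are below control exosomes in all 10 granule libraries, ATP6AP2 is above in all 10, and HD granule 3 departs from the other HD granules in many rows.

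The question behind the main contrast is which of these mRNAs were relatively more abundant in granules and which in exosomes. In control cells the set was split between the compartments: 11 members were higher in granules, 20 were lower and 16 were not called, so 66.0% were called (edgeR quasi-likelihood test, Benjamini-Hochberg adjusted p under 0.05, 5 libraries a group). Among all 14777 genes that could be tested, 62.4% were called (30.0% higher, 32.5% lower), so the share called among the members was near the background. The median log2 fold change was -0.25 over the members and -0.02 over all genes. Granules and exosomes did not overlap for 24 members, of which 7 had all granules above and 17 had all granules below. Among all genes tested, 49.4% did not overlap, 26.2% above and 23.2% below. The V-ATPase genes went both ways (6 higher and 5 lower of 16), the lysosomal genes had 2 higher and 4 lower of 12, and the autophagy genes had 3 higher and 11 lower of 19. High-GC mRNAs were lower in granules across the transcriptome. For control cells, values are therefore also given with the GC content of each gene as a library-specific offset (called GC-adjusted). They are given wherever that ends a call, turns a direction or moves a fold by over 1.5 times. In comparisons with HD libraries, the folds of single members are given without this offset.

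**Figure D2:**
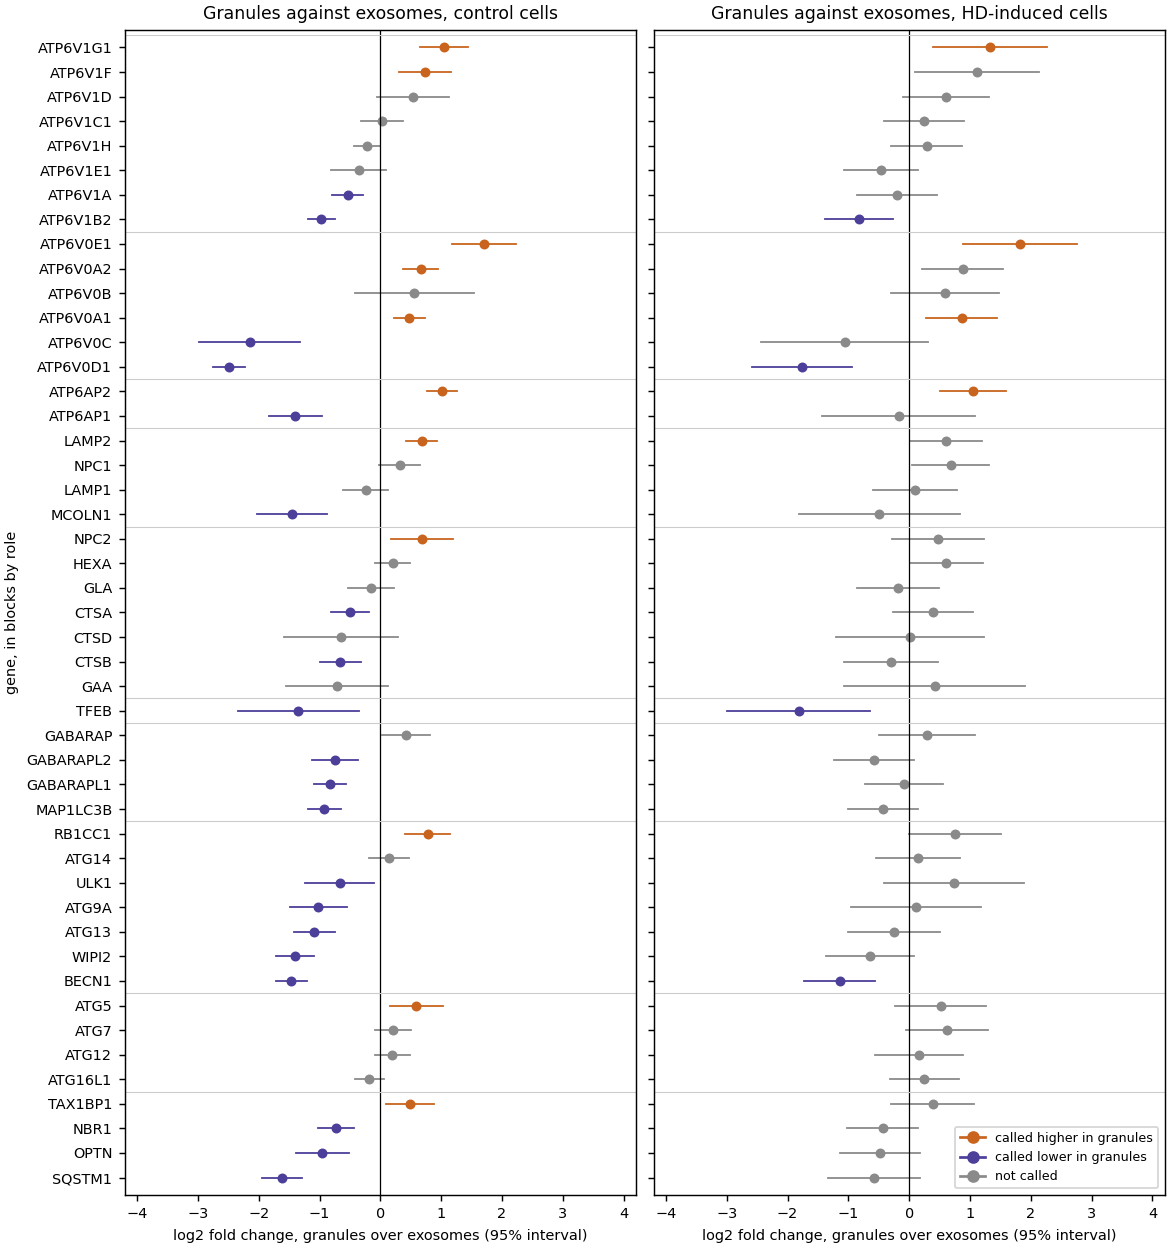
Log2 fold change of granules over exosomes with its 95% interval for the 47 genes, in control cells (left) and HD-induced cells (right), ordered within blocks by role. In control cells ATP6V0D1 at -2.50 and ATP6V0E1 at 1.71 are the extremes, and in HD-induced cells 4 genes are called in each direction.

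In the V1 sector, 2 of 8 subunits were higher in control granules, 2 were lower and 4 were not called. ATP6V1G1 (chr9:114587769-114598879), a subunit of the peripheral stalk, had 125, 146, 179, 225 and 247 CPM in control granules, against 70.3, 100.02, 90.7, 78.4 and 79 CPM in control exosomes. Every granule library was above every exosome library, and the log2 fold change was 1.05 ± 0.18 (SE, adjusted p = 0.000358). ATP6V1F (chr7:128862856-128865847), of the central stalk, was also higher, at 0.74 ± 0.20 (adjusted p = 0.00583), although the groups overlapped, and GC-adjusted it was 1.47. ATP6V1B2 (chr8:20197381-20221696), the ATP-binding B subunit, had 70.5, 68.7, 77.6, 80.9 and 81.6 CPM in control granules, against 141, 142, 128, 126 and 162 CPM in control exosomes. Its groups were far apart, with a log2 fold change of -0.97 ± 0.10 (adjusted p = 6.81e-06). The catalytic subunit ATP6V1A was lower at -0.54 ± 0.11 (adjusted p = 0.00135) and -1.22 GC-adjusted, but the call was lost when only reads on protein_coding transcripts were summed (-0.28, adjusted p = 0.0922). ATP6V1C1, which holds the peripheral stalks together, had the value nearest 0, with 104, 100.2, 122, 131 and 177 CPM in control granules, against 92.8, 119.8, 118, 112 and 143 CPM in control exosomes. The groups overlapped (0.03 ± 0.16, adjusted p = 0.898), and GC-adjusted it was lower in granules, at -0.88 (adjusted p = 1.14e-06). ATP6V1D, ATP6V1E1 and ATP6V1H were at 0.53, -0.36 and -0.23 and were not called. ATP6V1D passed as higher without control granule 1 (0.69, adjusted p = 0.0280) or 2 (0.76, adjusted p = 0.0365), and in 5 of 10 alternative settings, DESeq2 and voom among them. GC-adjusted, ATP6V1E1 (-0.54, adjusted p = 0.0129) and ATP6V1H (-0.43, adjusted p = 0.00259) were lower.

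The V0 sector held both extremes of the set. ATP6V0D1 (chr16:67438019-67481157), the subunit that couples V0 to the V1 stalk, had 24.7, 19.4, 22.7, 20.4 and 20.4 CPM in control granules, against 123, 103, 119, 125 and 100.3 CPM in control exosomes. Control granules thus had 5.64-fold less than control exosomes, with no overlap (log2 fold change -2.50 ± 0.12, adjusted p = 4.31e-08, and -1.74 GC-adjusted). ATP6V0C (chr16:2513726-2520218), the main subunit of the proton-carrying ring, had 31.6, 53.9, 15.5, 17.9 and 10.8 CPM in control granules, against 123, 88.5, 111, 131 and 87.5 CPM in control exosomes. It was lower in granules by more than the spread, although granule libraries differed among themselves (-2.15 ± 0.38, adjusted p = 0.000396, and -1.54 GC-adjusted). ATP6V0E1 (chr5:172983771-173035445), a small V0 subunit, went the other way, with 46.4, 94.7, 91.7, 125 and 123 CPM in control granules, against 34.3, 21.2, 26.9, 26.9 and 28.6 CPM in control exosomes. All granules were above all exosomes, by 3.27-fold (1.71 ± 0.24, adjusted p = 7.03e-05). The large membrane subunit ATP6V0A1 (chr17:42458878-42522579) had 101, 79.5, 79.5, 82.8 and 87.2 CPM in control granules, against 64.5, 57.4, 58.4, 62 and 48.7 CPM in control exosomes. It was higher in granules without overlap (0.47 ± 0.12, adjusted p = 0.00373). Its paralog ATP6V0A2 was higher too (0.66 ± 0.13, adjusted p = 0.000954), but GC-adjusted the call was lost (0.33, adjusted p = 0.107). ATP6V0B, a further ring subunit, was not called (0.55 ± 0.45, adjusted p = 0.3001), and its control granules spread from 94.2 to 682 CPM. GC-adjusted, ATP6V0B passed as higher in granules.

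The 2 accessory proteins of the pump, which share a name stem and no subunit position, were called in opposite directions. ATP6AP2 (chrX:40580970-40606848), also known as the prorenin receptor, had 93.9, 119, 107, 102 and 99.3 CPM in control granules, against 49, 42.5, 45.9, 47.5 and 58.4 CPM in control exosomes. Granules were about 2.02-fold higher and did not overlap exosomes (1.01 ± 0.12, adjusted p = 1.29e-05), but GC-adjusted the call was lost (0.34, adjusted p = 0.0657). ATP6AP1 (chrX:154428677-154436516), an assembly factor of V0, had 43.3, 48, 30.2, 29.3 and 25.2 CPM in control granules, against 107, 82.7, 84.3, 93.7 and 69 CPM in control exosomes. It was lower in granules without overlap (-1.40 ± 0.20, adjusted p = 7.27e-05, and -0.64 GC-adjusted).

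Of the 4 genes of lysosomal membrane proteins, 1 was higher in control granules and 1 was lower. LAMP2 (chrX:120426148-120469349), an abundant glycoprotein of the lysosomal membrane, had 97.7, 114, 94.7, 106 and 119 CPM in control granules, against 54.6, 72, 67.3, 53.1 and 65 CPM in control exosomes. The groups did not overlap (0.68 ± 0.12, adjusted p = 0.000361), but GC-adjusted the sign turned and nothing was called (-0.19, adjusted p = 0.219). MCOLN1 (chr19:7522624-7534009), a calcium-releasing channel of the lysosome, was scarce and lower in granules, with 7.77, 10.5, 5.04, 6.94 and 4.42 CPM in control granules, against 23.3, 13.4, 17.2, 21.6 and 14 CPM in control exosomes. All granules were below all exosomes (-1.45 ± 0.27, adjusted p = 0.000504, and -0.65 GC-adjusted). LAMP1, a close relative of LAMP2 in structure and place, had 70.2, 95.1, 58.4, 88 and 53.6 CPM in control granules, against 83.9, 73.3, 83.6, 92.8 and 74.5 CPM in control exosomes. Its groups overlapped (-0.25 ± 0.17, adjusted p = 0.226). The cholesterol exporter NPC1 was at 0.32 ± 0.15 and was not called (adjusted p = 0.0888). It passed as higher in granules in DESeq2 (0.44), GC-adjusted (0.44), and without control exosome 3 (0.41, adjusted p = 0.0349) or control granule 2 (0.51, adjusted p = 0.0139).

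Among the 7 genes of lumenal proteins, 1 was higher in control granules and 2 were lower. The higher one was NPC2, which passes cholesterol to NPC1 (0.68 ± 0.24, adjusted p = 0.0237, groups overlapping). That call rested on single libraries, since without control exosome 1, 3 or 4 its adjusted p was 0.0542, 0.0542 or 0.0599. The protease CTSB (chr8:11842524-11868087) had 47.5, 50.2, 32.8, 40.003 and 30.7 CPM in control granules, against 57.3, 61.2, 62, 56.1 and 62.6 CPM in control exosomes. Granules were all below exosomes (-0.66 ± 0.15, adjusted p = 0.00253), but the call was lost GC-adjusted (-0.04, adjusted p = 0.811) and with protein_coding transcripts alone (-0.34, adjusted p = 0.102). CTSA (chr20:45891335-45898820), a protease that also protects lysosomal sialidase and beta-galactosidase, had 32.8, 37.6, 29, 27.5 and 27.4 CPM in control granules, against 44.6, 37.6, 36.3, 48.8 and 38.1 CPM in control exosomes. It was lower at -0.50 ± 0.14 (adjusted p = 0.00857), it turned to 0.29 GC-adjusted (adjusted p = 0.0375), and without control granule 3 or 4 the adjusted p was 0.0535 or 0.0545. GLA (chrX:101397803-101407925), the alpha-galactosidase deficient in Fabry disease, had 148, 176, 227, 287 and 259.9 CPM in control granules, against 197, 254, 215, 221 and 260.1 CPM in control exosomes. It was nearest 0 of this group (-0.15 ± 0.17, adjusted p = 0.453). The hydrolases HEXA, CTSD and GAA were at 0.20, -0.65 and -0.72 and were not called, but HEXA passed as higher in granules when GC-adjusted. Without control granule 2 all 3 passed, HEXA higher in granules at 0.36 (adjusted p = 0.0488), and CTSD and GAA lower at -1.07 (adjusted p = 0.00909) and -0.98 (adjusted p = 0.0168).

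TFEB (chr6:41683978-41736223), the transcription factor of lysosome biogenesis, had 2.5, 4.83, 0.84, 2.19 and 1.17 CPM in control granules, against 5.27, 3.31, 8.32, 5.51 and 5.37 CPM in control exosomes. The groups overlapped at these low counts, and it was called lower in granules (-1.35 ± 0.46, adjusted p = 0.0218). GC-adjusted the call was lost (-0.76, adjusted p = 0.0689), as it was without control exosome 3 (adjusted p = 0.0581), control granule 3 (0.0501) or control granule 5 (0.0521).

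Of the 4 ATG8 family mRNAs, 3 were lower in control granules and the most abundant, GABARAP, was not called. These small ubiquitin-like proteins are linked to lipid on the autophagosome and recruit cargo receptors. MAP1LC3B (chr16:87392336-87404774), which encodes the widely used autophagosome marker LC3B, had 23.4, 31.8, 29.7, 31.6 and 31.9 CPM in control granules, against 46.6, 55.8, 48.3, 52.9 and 60.6 CPM in control exosomes. GABARAPL1 (chr12:10212877-10223128) had 34, 49.2, 41.3, 48.9 and 41.5 CPM in control granules, against 69.5, 67.7, 74.7, 74.3 and 73.1 CPM in control exosomes. GABARAPL2 (chr16:75566379-75577881) had 36.5, 58.9, 43.5, 68.1 and 43.8 CPM in control granules, against 87.8, 74.4, 70.3, 88.2 and 75.6 CPM in control exosomes. For these 3 all granules lay below all exosomes, with log2 fold changes of -0.92 ± 0.13 for MAP1LC3B (adjusted p = 6.04e-05), -0.83 ± 0.12 for GABARAPL1 (adjusted p = 0.000101) and -0.75 ± 0.17 for GABARAPL2 (adjusted p = 0.00245). GABARAP (chr17:7240008-7242449) had 159, 298, 235, 350.3 and 296 CPM in control granules, against 213, 185, 194, 179 and 171 CPM in control exosomes. The granules spanned the exosome values, and the log2 fold change of 0.42 ± 0.18 missed the threshold (adjusted p = 0.0602). It passed as higher in granules when control granule 1, 2, 3 or 5 was left out (adjusted p of 0.00232 to 0.0475). It also passed as higher in 8 of 10 alternative settings, among them DESeq2, voom and the GC offset (0.61 GC-adjusted, adjusted p = 0.00985).

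Of the 7 genes of autophagy initiation and nucleation, 5 were lower in control granules and 1 was higher. BECN1 (chr17:42810132-42824282), the Beclin 1 subunit of the phosphatidylinositol 3-kinase complex, had 37.4, 31.5, 38.4, 41.3 and 42.2 CPM in control granules, against 89.1, 110.1, 91, 94.9 and 110.4 CPM in control exosomes. WIPI2 (chr7:5190233-5233855), which reads the lipid that this complex makes, had 48.1, 36.8, 41, 33.3 and 31.1 CPM in control granules, against 109.5, 90.2, 92.4, 99.99 and 83.3 CPM in control exosomes. Both were lower in every granule library, with -1.46 ± 0.12 for BECN1 (adjusted p = 8.56e-07) and -1.41 ± 0.14 for WIPI2 (adjusted p = 5.54e-06). RB1CC1 (chr8:52622458-52714435), which encodes the scaffold FIP200 of the ULK1 kinase complex, was the exception, with 272, 249, 355, 312 and 418 CPM in control granules, against 137, 181, 177, 149 and 237 CPM in control exosomes. All granules were above all exosomes (0.78 ± 0.17, adjusted p = 0.00180), but GC-adjusted the value was -0.15 and was not called (adjusted p = 0.185). Of the same kinase complex, the set also held ATG13, lower at -1.09 ± 0.15 (adjusted p = 7.46e-05), and ULK1, the kinase, lower at -0.67 ± 0.26 (adjusted p = 0.0409). The ULK1 call was weak, since GC-adjusted it was 0.13 (adjusted p = 0.633), and it was lost with protein_coding transcripts alone (-0.58, adjusted p = 0.0853) and without any one of control exosomes 1, 4 and 5 and control granules 2, 3, 4 and 5 (adjusted p of 0.0590 to 0.147). ATG9A, the membrane-carrying scramblase, was lower at -1.02 ± 0.21 (adjusted p = 0.00127), but GC-adjusted the call was lost (-0.20, adjusted p = 0.174). ATG14, which directs Beclin 1 complexes to autophagy, had 32, 41.5, 41.2, 41.1 and 52.6 CPM in control granules, against 30.5, 36.6, 41.8, 29.4 and 38.8 CPM in control exosomes. These overlapped (0.14 ± 0.15, adjusted p = 0.430).

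Of the conjugation genes, whose products attach ATG8 proteins to lipid, 1 of 4 was higher in control granules and none was lower. ATG5 (chr6:106184476-106325760), part of the ligase-like complex, had 52.1, 64.1, 63.8, 85.2 and 104 CPM in control granules, against 30.4, 53.1, 48.7, 50.6 and 47.8 CPM in control exosomes. The groups overlapped slightly (0.59 ± 0.20, adjusted p = 0.0225), and GC-adjusted the sign turned without a call (-0.11, adjusted p = 0.493). The call was also lost with protein_coding transcripts alone (0.33, adjusted p = 0.206) and without control exosome 1, the lowest library (0.46, adjusted p = 0.0505). ATG16L1 (chr2:233251673-233295669), which places that complex on the membrane, had 37.6, 38.1, 46.1, 40.4 and 38.3 CPM in control granules, against 41.3, 48, 40.7, 40.6 and 43.1 CPM in control exosomes. As a gene sum it was not called (-0.18 ± 0.11, adjusted p = 0.174). ATG7, the activating enzyme, and ATG12, the ubiquitin-like partner of ATG5, were at 0.21 and 0.19 and were not called. GC-adjusted, ATG7 passed as higher in granules and ATG12 was lower (-0.76, adjusted p = 8.14e-05).

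All 4 autophagy receptors were called, 3 lower in control granules and 1 higher. SQSTM1 (chr5:179806393-179838078), which encodes the receptor p62, had 105, 159, 122, 128 and 100.4 CPM in control granules, against 396, 319, 382, 378 and 298 CPM in control exosomes. Control granules thus held 3.07-fold less (-1.62 ± 0.15, adjusted p = 2.58e-06, and -0.83 GC-adjusted). NBR1 (chr17:43170409-43211688), a receptor that acts with p62, had 84.7, 61.3, 85.9, 76 and 99.2 CPM in control granules, against 116, 135, 127, 105 and 151 CPM in control exosomes. Its groups did not overlap (-0.73 ± 0.14, adjusted p = 0.000654). OPTN, a receptor of damaged mitochondria and bacteria, was lower as well (-0.95 ± 0.20, adjusted p = 0.00131), and this call was lost with protein_coding transcripts alone (-0.45, adjusted p = 0.141). TAX1BP1 (chr7:27739373-27829767), another receptor, had 73.6, 77.4, 90.4, 90.0 and 139 CPM in control granules, against 56, 75.8, 52.2, 56.3 and 74.2 CPM in control exosomes. It was called higher with overlap (0.49 ± 0.18, adjusted p = 0.0309), it turned to -0.29 GC-adjusted (adjusted p = 0.0269), and without control exosome 1, 3 or 4 its adjusted p was 0.0727, 0.0820 or 0.0776.

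The split of the set followed GC content, which the choice of members did not use. Of the 14 members whose transcripts had at least 55% GC, 10 were lower in control granules and 1, ATP6V1F, was higher, with a median log2 fold change of -0.87. Of the 19 members from 45% to under 55% GC, 7 were lower and 3 higher, with a median of -0.23. Of the 14 members under 45% GC, 3 were lower and 7 higher, with a median of 0.51. Set against GC content, the log2 fold change had a Spearman's rho of -0.52 across the 47 members, and across 13106 protein-coding genes it was -0.52 as well, so the members did not stand out from the transcriptome. Transcript length showed little relation, with rho of -0.03 over the members and 0.16 over 13124 genes. These are correlations across genes of the same libraries, and genes are not independent replicates. With the GC offset, 11 members were called higher and 20 lower (61.5% of all genes called, 25.7% higher and 35.9% lower), but these were not the same members: 27 kept direction and call, 5 lost their call, 7 gained one, and for ATP6V1C1, LAMP2, CTSA, ULK1, RB1CC1, ATG5, ATG12 and TAX1BP1 the direction turned.

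**Figure D3:**
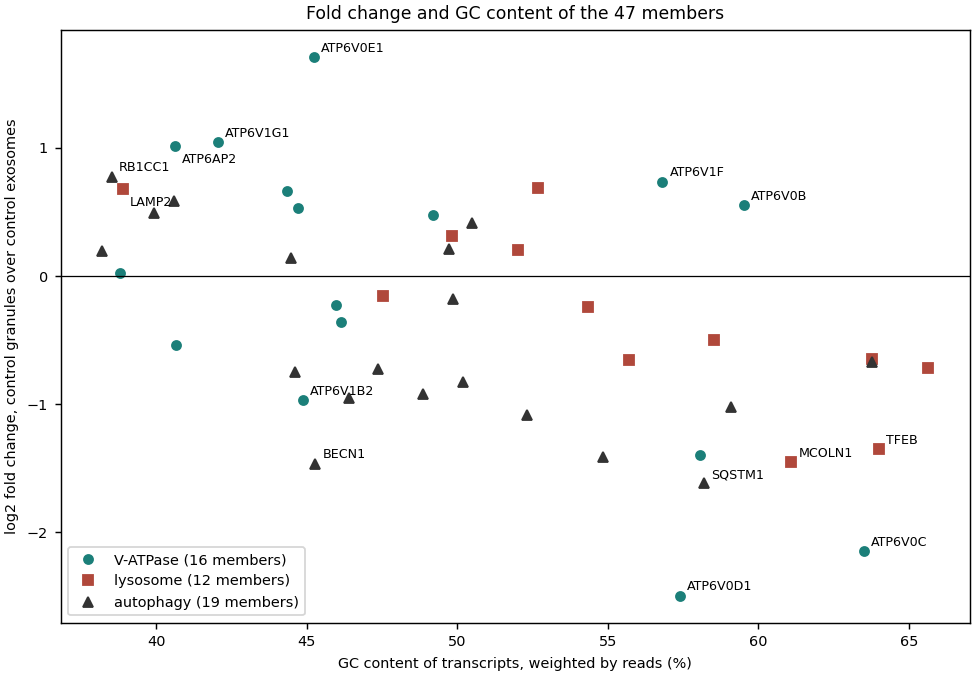
Log2 fold change of control granules over control exosomes against the GC content of the transcripts, for the 47 members by family. The low-GC members reach up to 1.05 and the high-GC members down to -2.50, while ATP6V1F and ATP6V0B lie above 0 at high GC and BECN1 and ATP6V1B2 lie below 0 at about 45%.

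Granules and exosomes also differed in which transcripts of these genes carried the reads. Each gene's annotation holds protein_coding transcripts and others, such as transcripts with a retained intron or targets of nonsense-mediated decay (NMD). The share of a member's reads outside protein_coding transcripts had a median of 16.4% in control granules and 5.48% in control exosomes. Over 12781 genes the median was 8.24% in control granules and 4.37% in control exosomes. All 5 control granules were above all 5 control exosomes in 17 of 47 members (21.0% of all genes), and OPTN was the 1 member with all granules below (1.86% of all genes). MAP1LC3B had 21.9%, 56.98%, 43.9%, 41.3% and 23.9% of its reads outside protein_coding transcripts in control granules, against 4.27%, 3.19%, 0.373%, 1.06% and 1.58% in control exosomes. Transcripts marked as NMD targets made up most of it, with a mean of 33.3% in control granules and 1.58% in control exosomes. ATG16L1 had 20.6%, 49.4%, 54.3%, 46.1% and 34.8% in control granules, against 3.32%, 1.55%, 4.28%, 3.89% and 14.6% in control exosomes, mostly on retained-intron transcripts (a mean of 34.8% in control granules and 3.49% in control exosomes). Its protein_coding reads alone were lower in granules (-0.61 ± 0.16, adjusted p = 0.00476), which the gene sum did not show. CTSA had the highest share, 74.3% ± 6.42 in control granules and 26.4% ± 7.71 in control exosomes (SD, n = 5), again mostly with retained introns, and its protein_coding reads were lower in granules by 1.73 on the log2 scale, in place of 0.50. MCOLN1 had 53.2% ± 21.5 in control granules and 9.16% ± 7.99 in control exosomes, but control granule 2 at 15.3% lay within the exosome range. LAMP1 had a mean of 29.3% in control granules and 6.59% in control exosomes. WIPI2 had 19.3% in control granules and 1.80% in control exosomes. GABARAPL1, whose other reads were on NMD targets, had 40.7% in control granules and 13.4% in control exosomes. OPTN had 3.81% ± 2.03 in control granules and 19.4% ± 7.64 in control exosomes. In HD-induced cells 9 members had all granules above all exosomes (14.4% of all genes). With protein_coding transcripts alone, 13 members were higher and 18 lower in control granules (61.2% of all genes called). The assignment of reads to overlapping transcripts is an estimate of the authors' quantifier, and the deeper granule libraries detected more transcripts, with 24962 to 27701 genes with a read in control granules and 19507 to 23944 in control exosomes. The part of depth in these shares was not tested.

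**Figure D4:**
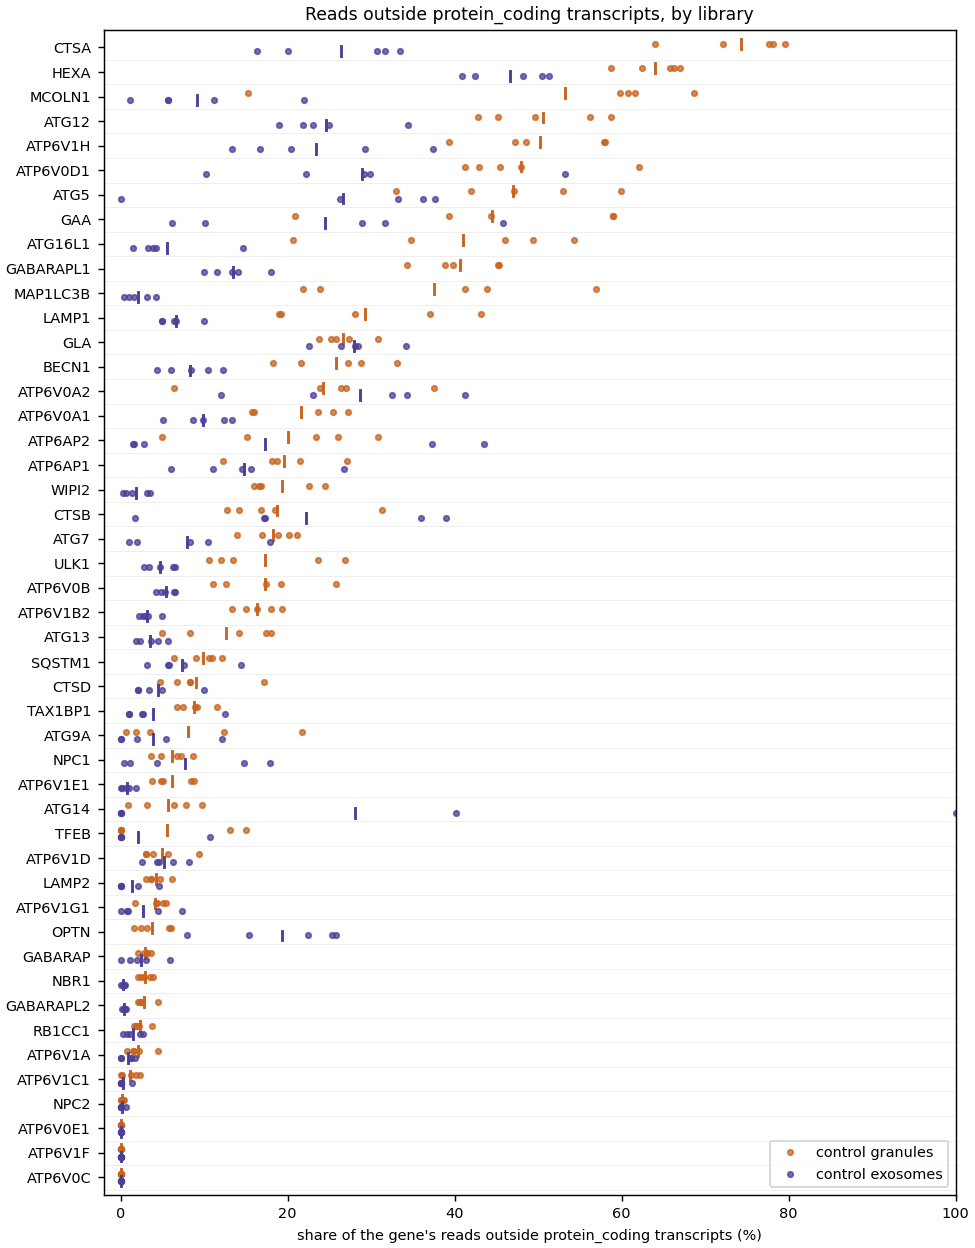
Share of each member's reads outside protein_coding transcripts in the 5 control granule and 5 control exosome libraries (points), with group means as bars. CTSA, HEXA, MAP1LC3B and ATG16L1 are among the 17 members whose granule points all lie right of the exosome points, and OPTN shows the opposite.

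LAMP2 mRNA has 3 well-known coding isoforms that differ in the last exon, which encodes the membrane span and the short cytosolic tail. LAMP2A is the receptor of chaperone-mediated autophagy, a route that passes single proteins through the lysosomal membrane. The coding parts of exon 9 are printed because the isoforms differ in them. The stop codon is in capitals, and the bases are from GENCODE release 29 on GRCh38, minus strand. Each last exon extends beyond the printed stretch, so the isoform shares do not rest on these bases alone.
LAMP2A, chrX:120431323-120431462: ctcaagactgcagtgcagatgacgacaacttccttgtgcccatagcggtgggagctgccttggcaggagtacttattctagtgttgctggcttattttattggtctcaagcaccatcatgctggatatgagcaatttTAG
LAMP2B, chrX:120439154-120439293: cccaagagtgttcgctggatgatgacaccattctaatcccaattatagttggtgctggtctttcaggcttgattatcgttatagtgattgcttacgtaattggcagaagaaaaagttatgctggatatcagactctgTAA
LAMP2C, chrX:120428484-120428626: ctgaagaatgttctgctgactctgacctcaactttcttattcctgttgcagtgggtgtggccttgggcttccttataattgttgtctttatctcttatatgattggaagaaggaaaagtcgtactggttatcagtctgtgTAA
Set against each other base by base, the A and B stretches, of 140 bases each, had the same base at 56.4% of positions. LAMP2B took most LAMP2 reads in both compartments, but its share was smaller in granules and that of LAMP2A larger. LAMP2A had 32.0%, 28.0%, 26.4%, 31.6% and 30.1% of LAMP2 reads in control granules, against 16.2%, 7.12%, 11.0%, 13.5% and 16.3% in control exosomes. LAMP2B had 52.9%, 49.7%, 54.2%, 54.4% and 49.4% in control granules, against 80.7%, 87.3%, 82.2%, 70.3% and 80.9% in control exosomes. For both isoforms the groups did not overlap, with a difference of 16.8 percentage points for LAMP2A and -28.1 for LAMP2B (exact 2-sided permutation p = 0.00794 each, the smallest that 5 against 5 libraries allow, and 0.0476 after Benjamini-Hochberg adjustment over 12 tests). LAMP2C had 5.97% ± 2.83 in control granules and 2.83% ± 6.33 in control exosomes, where 4 of 5 libraries had none and 1 had 14.1% (adjusted exact permutation p = 0.707). In HD-induced cells the means were 26.0% ± 6.78 of LAMP2A in granules (n = 5) and 10.7% ± 8.96 in exosomes (n = 4), and 54.1% ± 11.2 of LAMP2B in granules and 80.1% ± 5.70 in exosomes. Those differences missed the threshold after adjustment (exact permutation, adjusted p = 0.0952 for LAMP2A and 0.0635 for LAMP2B). LAMP2 reads numbered 1094 to 2254 in granule libraries and 76.0 to 587 in exosome libraries. The LAMP2A transcript in the files is 6535 bases long, against 1867 in GENCODE release 29, and the last exon of LAMP2C lies downstream of that of LAMP2A in the same gene, so reads of the long 3' end of LAMP2A and of LAMP2C may not be told apart.

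**Figure D5:**
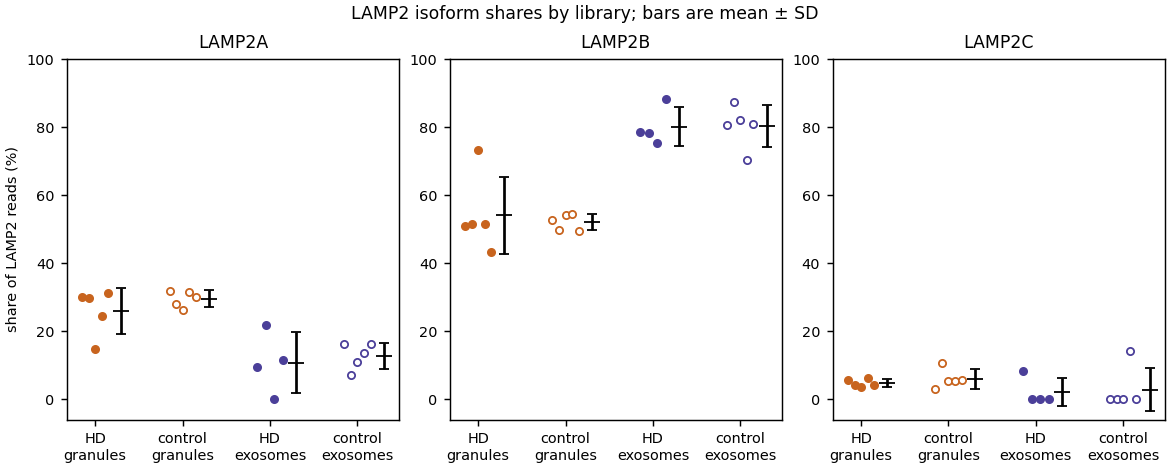
Share of LAMP2 reads on LAMP2A, LAMP2B and LAMP2C in each library (points) with mean ± SD (bars), for 4 groups. LAMP2A is at 26.4% to 32.0% in control granules and 7.12% to 16.3% in control exosomes, and in HD granule 3 LAMP2B reaches 73.3%.

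In HD-induced cells, the same contrast called 4 members higher in granules and 4 lower, with 39 not called (17.0% called, against 17.7% of 14431 genes, 11.9% higher and 5.77% lower). The higher ones were the V-ATPase genes ATP6V0E1, ATP6V1G1, ATP6AP2 and ATP6V0A1, and the lower ones were ATP6V0D1, ATP6V1B2, BECN1 and TFEB. The groups did not overlap for 7 members, 3 with all granules above (10.4% of all genes) and 4 with all granules below (7.13% of all genes). ATP6V0D1 had 26, 21.4, 53.6, 20.3 and 19.3 CPM in HD granules, against 109.6, 54.8, 156 and 75.4 CPM in HD exosomes. All granules lay below all exosomes, the nearest pair being 53.6 and 54.8 CPM (-1.76 ± 0.39, adjusted p = 0.00967). BECN1 had 37.8, 40.4, 46.3, 52 and 44.5 CPM in HD granules, against 95.5, 104, 74.2 and 132 CPM in HD exosomes. It was lower in every granule library (-1.14 ± 0.27, adjusted p = 0.0136). ATP6V1B2 had 70.8, 74.9, 70.3, 79.2 and 82 CPM in HD granules, against 114, 147, 152 and 149 CPM in HD exosomes. The groups did not overlap (-0.83 ± 0.26, adjusted p = 0.0439), nor did they for TFEB (-1.82 ± 0.55, adjusted p = 0.0355), which had 2.85, 1.56, 4.02, 2.15 and 1.32 CPM in HD granules, against 5.31, 8.55, 16.9 and 4.33 CPM in HD exosomes. Both calls were near the threshold: that of ATP6V1B2 was lost in 8 of 10 fits that left out 1 library (adjusted p of 0.0682 to 0.107; it held without HD exosome 4 and without HD granule 3) and in DESeq2 (adjusted p = 0.0628), and that of TFEB was lost without HD exosome 2 or 3 or HD granule 1, 2, 4 or 5 (adjusted p of 0.0641 to 0.127) and in DESeq2 (adjusted p = 0.0892).

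On the other side, ATP6V0E1 had 96.3, 135, 29.9, 109 and 164 CPM in HD granules, against 21.3, 24.9, 49.96 and 29.6 CPM in HD exosomes. Only HD granule 3 fell into the exosome range (1.82 ± 0.44, adjusted p = 0.0143). ATP6AP2 had 103, 112, 83.2, 99.8 and 96 CPM in HD granules, against 40.4, 46.3, 50.7 and 58.8 CPM in HD exosomes. It was higher in every granule library (1.05 ± 0.25, adjusted p = 0.0143). ATP6V0A1 had 89.9, 77.6, 134, 84 and 84.6 CPM in HD granules, against 50.4, 48.4, 69.8 and 44 CPM in HD exosomes, with no overlap (0.86 ± 0.27, adjusted p = 0.0427). That call was lost without HD exosome 1, 2 or 5 or HD granule 1, 2, 4 or 5 (adjusted p of 0.0802 to 0.0927), and with protein_coding transcripts alone (0.79, adjusted p = 0.0654). ATP6V1G1 had 209.6, 297, 56.8, 263 and 326 CPM in HD granules, against 77.9, 105, 56.6 and 129.5 CPM in HD exosomes. Here too HD granule 3 fell among the exosomes (1.33 ± 0.44, adjusted p = 0.0488), and the call was lost in 8 of 10 fits that left out 1 library (adjusted p of 0.0692 to 0.129; it held without HD exosome 5 and without HD granule 3). ATP6AP2 missed the threshold without HD granule 2 (adjusted p = 0.0516), while ATP6V0D1, BECN1 and ATP6V0E1 were called in all 10 of these fits. Without HD exosome 4, 3 members were called higher and 4 lower (18.0% of all genes called, 10.2% higher and 7.85% lower). Without HD granule 3, which carried the high mitochondrial share, 10 were higher and 9 lower (38.8% of all genes). Those 9 included SQSTM1, at -0.82 ± 0.31 (adjusted p = 0.0461), and ATP6V0C, at -2.12 ± 0.47 (adjusted p = 0.00299), for which HD granule 3 had 108 CPM and the other HD granules 10.6 to 28.8 CPM. Without HD exosomes 2 and 4 and HD granule 3, 7 were higher and 10 lower (35.0% of all genes).

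For the disease state itself, no member was called in either compartment. In HD against control exosomes, 0 of 12936 genes were called by edgeR (0.00%), with 980 at an unadjusted p under 0.05 (7.58%), and DESeq2 and voom also called 0. Among the members 7 were under that unadjusted value, with the smallest adjusted p at 0.598. They were ATP6V1E1, NPC2 and TAX1BP1, with values above 0, and CTSD, ATG13, ATG9A and WIPI2, with values below 0. TAX1BP1 had 68.8, 116, 73.5 and 119 CPM in HD exosomes, against 56, 75.8, 52.2, 56.3 and 74.2 CPM in control exosomes (0.58 ± 0.22, unadjusted p = 0.0184 in edgeR). ATG13 had 116, 66.2, 44.8 and 58.1 CPM in HD exosomes, against 135, 115, 99.9, 102 and 91.5 CPM in control exosomes (-0.58 ± 0.24, unadjusted p = 0.0297 in edgeR). Both pairs of groups overlapped, as they did for all 47 members (1.70% of all genes did not overlap). Without HD exosome 1, the calls were CTSD (-1.16, adjusted p = 0.0403), ATG13 (-0.92, adjusted p = 0.0354) and ATG9A (-1.09, adjusted p = 0.0427), all lower in HD exosomes, where 3.80% of all genes were called, most of them lower as well (423 of 497). By GC content, the median log2 fold change of HD over control exosomes was -0.48 over the 14 members with at least 55% and 0.19 over the 14 under 45%. Across 12196 protein-coding genes this fold change had a Spearman's rho of -0.65 with GC content, and across the 47 members it was -0.67. The folds of single members in this comparison are not GC-adjusted, and with the GC offset no member was called.

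In HD against control granules, 0 of 16750 genes were called by edgeR (0.00%), with 215 at an unadjusted p under 0.05 (1.28%), while DESeq2 called 4 genes and voom 5, no member among them. No member was under an unadjusted p of 0.05 in edgeR, 3 were in DESeq2 (2.17% of all genes) and 14 in voom (29.4% of all genes). The log2 fold changes of the members ran from -0.73 for ATP6V0B to 0.53 for OPTN, with a median of 0.16 against 0.04 over all genes. SQSTM1 had 143, 124, 251, 168 and 133 CPM in HD granules, against 105, 159, 122, 128 and 100.4 CPM in control granules. The groups overlapped for this and every other member (0.352% of all genes did not overlap). The difference of the HD effect between granules and exosomes, tested as an interaction over all 20 libraries, called 3 of 16154 genes (0.0186%) and no member. At an unadjusted p under 0.05 in edgeR stood 3 members (4.82% of all genes), SQSTM1 (0.92 ± 0.37), CTSA (0.79 ± 0.32) and GABARAPL1 (0.63 ± 0.30), each with an adjusted p of 0.875. These wide errors limit what can be said: a missed threshold does not show that the states are alike.

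Further genes of the same pathways, 195 by symbol, gave a like picture in control cells. Their counts and folds come from the main fit, and GC-adjusted values are not given for them. The test covered 184 of them and called 62.0%, with 47 higher in control granules than in exosomes and 67 lower, close to the 62.4% of all genes (30.0% higher and 32.5% lower) against which the counts of each list stand. Genes of other lysosomal membrane proteins had 11 higher and 2 lower of 23. MCOLN3, a paralog of MCOLN1, had 56.2 ± 7.495 CPM in control granules and 10.1 ± 1.48 CPM in control exosomes (SD, n = 5, log2 fold change 2.39 ± 0.15, adjusted p = 1.91e-07), in the direction opposite to MCOLN1. MFSD8, a lysosomal transporter mutated in a childhood neuronal ceroid lipofuscinosis, followed with 2.01 ± 0.14 (adjusted p = 3.93e-07), and LAPTM4A with 1.83 ± 0.19 (adjusted p = 6.50e-06). The other hydrolases were split, with 12 higher and 13 lower of 42, such as IDS, an enzyme that degrades heparan and dermatan sulfate, at -1.55 ± 0.10 (adjusted p = 1.85e-07), GM2A at -1.35 ± 0.18 (adjusted p = 4.47e-05) and the protease CTSC at 1.13 ± 0.15 (adjusted p = 5.24e-05). Other autophagy machinery had 8 higher and 14 lower of 30, among them YKT6, a SNARE of autophagosome fusion (-1.91 ± 0.13, adjusted p = 3.45e-07), WDR45B, a relative of WIPI2 (-1.41 ± 0.10, adjusted p = 5.06e-07), and TMEM41B, a lipid scramblase (1.51 ± 0.13, adjusted p = 1.74e-06).

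Other receptors and adaptors had 5 higher and 10 lower of 22. PINK1, the kinase that starts the removal of damaged mitochondria, had 13.3 ± 3.93 CPM in control granules and 66.0 ± 13.2 CPM in control exosomes (-2.39 ± 0.23, adjusted p = 3.23e-06). CCPG1, a receptor of endoplasmic reticulum autophagy, was higher (1.66 ± 0.23, adjusted p = 5.84e-05), and BCL2L13 was lower (-0.63 ± 0.10, adjusted p = 0.000161). Genes of mTORC1 and TFEB control had 4 higher and 13 lower of 30. Examples were YWHAG, a 14-3-3 protein (-1.81 ± 0.09, adjusted p = 5.65e-08), PRKAB1, a subunit of the energy sensor AMPK (-2.25 ± 0.17, adjusted p = 5.06e-07), and RRAGA, a lysosomal GTPase of amino acid sensing (-1.30 ± 0.12, adjusted p = 3.20e-06). Genes of lysosomal sorting and fusion had 3 higher and 11 lower of 23, with GGA2 (-1.18 ± 0.11, adjusted p = 2.01e-06), RAB7A, the GTPase of late endosomes (-1.04 ± 0.11, adjusted p = 7.71e-06), and VPS33A (-0.88 ± 0.11, adjusted p = 1.96e-05) all lower in granules. The remaining V-ATPase genes, 14 tested, had 4 higher and 4 lower, with DMXL1, a regulator of pump assembly, at 1.32 ± 0.12 (adjusted p = 2.03e-06) and the assembly factors VMA21 at -1.15 ± 0.10 (adjusted p = 2.06e-06) and TMEM199 at -1.23 ± 0.12 (adjusted p = 5.11e-06). In HD-induced cells 19 of these 184 genes were higher and 12 lower (16.8% called), and in HD against control no gene of these lists was called in granules or exosomes, where 1 of 185 and 7 of 182 were under an unadjusted p of 0.05.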

How the data were processed

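Total RNA of 20 libraries was sequenced, and per the submitters' processing notes reads were handled with Trimmomatic, cutadapt, FastQC and Salmon on GRCh38.p14, with no versions given. Per the file headers, the deposited tables hold expected counts (estimated reads) and TPM per transcript, as the authors computed them, 1 file a library. Of 921552 entries in each, 251955 carry a transcript and gene name, and the 669597 others were left out of all library sizes and tests. Depth is given with the groups in the report.

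Estimated reads were summed by gene and rounded to whole numbers. edgeR 4.0.16 in R 4.3.3 was used with its default filter on low counts, TMM scaling and robust quasi-likelihood tests over all genes, with Benjamini-Hochberg adjustment and a call under 0.05. Each comparison was fitted on its own 10 libraries, and the interaction on all 20. All 47 members passed the filter in each. DESeq2 1.42.0 and voom of limma 3.58.1 were alternatives, as were other scalings and filters, a replicate block, a GC offset and left-out libraries. Sums over protein_coding transcripts and leave-one-out values of the share outside them were added after the data were seen. On simulated counts with 200 genes changed 4-fold, the main test called 96.5% of them in granules against exosomes of control cells (15033 genes), 94.5% in HD-induced cells (15222 genes), 87.5% in HD against control exosomes (13060 genes) and 98.5% in HD against control granules (16943 genes). The simulation gave every gene the same spread setting in every group, and the changed genes came from those with more reads. The uneven spread of HD exosomes and the GC trend were not simulated, so these shares do not give the power in the real data. LAMP2 isoform shares were compared by exact permutation tests, with Benjamini-Hochberg adjustment over 12.

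Values in every control library are given for 29 members, and those in HD libraries only where a member was called there or is compared between states: in each role group up to 2 called members with the smallest p and the one nearest 0 in control cells, the 4 with the largest fold in each direction, the 4 called with the smallest p per direction in HD-induced cells, any called between HD-induced and control, the ATG8 family, LAMP2 and SQSTM1. Up to 3 genes with the smallest p are named in each further list. ATG13 values in exosomes were added after they were seen. The members, lists and tests were chosen with earlier results of these data known.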

Additional observations from a re-analysis of the deposited data

Results flagged for a closer look

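Of 200 values tested for a library far from the rest of its group, 17 stood apart, and chance gives about 1 in 20. HD granule 3 accounted for 11 of them, always as the highest of its group. It had 134 CPM of ATP6V0A1, 108 CPM of ATP6V0C, 53.6 CPM of ATP6V0D1, 138 CPM of ATP6AP1, 138 CPM of LAMP1, 23.1 CPM of MCOLN1, 70.8 CPM of CTSA, 90.8 CPM of CTSB, 116 CPM of GAA and 37.7 CPM of OPTN, and 73.3% of its LAMP2 reads were on LAMP2B. The next HD granule had 40.8 CPM of ATP6AP1, 33.9 CPM of GAA and 51.5% on LAMP2B. The same library had the highest mitochondrial share, and the part of that in these values was not tested.

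The lowest HD exosome for ATP6V1B2 was HD exosome 1, at 114 CPM against 147 CPM in the next. Control granule 1 was lowest for MAP1LC3B at 23.4 CPM, with the next at 29.7 CPM. Control granule 5 was highest for TAX1BP1 at 139 CPM, with the next at 90.4 CPM. Control exosome 1 was lowest for ATG5 at 30.4 CPM, with the next at 47.8 CPM. LAMP2C had 8.27% of LAMP2 reads in HD exosome 1 and 14.1% in control exosome 4, and 0 in the other exosomes, HD exosome 4 aside.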

How the results depend on the processing

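In control cells the members called ranged from 8 to 15 higher and 17 to 21 lower in granules when single libraries were left out. With the GC offset, and with it and a replicate block together, the log2 fold change turned to -0.88 and -0.88 for ATP6V1C1, -0.19 and -0.19 for LAMP2, 0.29 and 0.29 for CTSA, 0.13 and 0.099 for ULK1, -0.15 and -0.14 for RB1CC1, -0.11 and -0.12 for ATG5, -0.76 and -0.77 for ATG12, and -0.29 and -0.29 for TAX1BP1. In HD-induced cells the members called higher numbered 11 with voom (20.04% of all genes higher), 9 with the GC offset (16.5%), 9 with the GC offset and replicate block (15.9%), and 7 without HD exosomes 2 and 4 and HD granule 3 (18.6%), against 11.9% of all genes in the main setting. Those called lower numbered 2 with DESeq2 (3.49% of all genes lower), 2 without a count filter (5.70%), 13 with voom (21.7%) and 10 without those libraries (16.4%), against 5.77%. Leaving out single libraries gave 1 to 10 higher and 2 to 9 lower, the most without HD granule 3. In HD against control exosomes, leaving out single libraries gave 0 to 3 lower, and the replicate block gave 2 lower (1.94% of all genes lower), GAA (-1.06, adjusted p = 0.0192 in edgeR) and ULK1 (-1.01, adjusted p = 0.0412 in edgeR). The difference in LAMP2C share between granules and exosomes of control cells ranged from 1.97 to 5.97 percentage points. As a share of named-gene reads in place of TPM, the log2 ratio of the summed level, granules over exosomes in control cells, was 0.062 for V0 (-0.36 in TPM), -0.0037 for the accessory proteins (-0.26 in TPM), 0.19 for the lysosomal membrane proteins (-0.22 in TPM) and -0.92 for the receptors (-0.73 in TPM). The sign also turned for all V-ATPase members (0.146% in control granules against 0.138% in control exosomes, 352 against 366 TPM) and the conjugation genes (0.0221% against 0.0183%, 37.6 against 38.2 TPM). The cause of these changes was not tested. Same-numbered libraries were also correlated, by the deviations of log2 of CPM + 1 from the mean of their own group and not by the levels themselves. These correlations were -0.23 to 0.58, and not every pair was over 0.1. Unlike the levels, they included HD exosome 4, also in the mean of its group. Replicate 5 correlated best with its own number in every comparison (0.30, 0.31, 0.30 and 0.58). Replicate 1 did so in all but HD against control granules, and replicates 2, 3 and 4 never did. Whether equal numbers mark a pairing was not tested, and the main fits did not use the numbers. With the number as a replicate block, 13 members were higher and 22 lower in control cells (62.9% of all genes called). In HD-induced cells the block gave 6 higher and 4 lower (27.8% of all genes called), and TFEB lost its call (adjusted p = 0.0589 in edgeR). With the GC offset and the block, TFEB (adjusted p = 0.0890 in edgeR) and ATP6V0E1 (0.0983) lost theirs. Without a count filter, ATP6V1B2, ATP6V0A1 and TFEB lost theirs (adjusted p of 0.0611 to 0.0850 in edgeR). ATP6V1B2 also lost its call with RLE size factors (0.0619), and ATP6V0A1 without HD exosomes 2 and 4 and HD granule 3 (0.0709). Upper-quartile factors were not run where HD exosome 4 takes part. The depth of HD exosomes limits every comparison that uses them.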
